A study of Mus musculus with 12 samples.

Results

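RNA levels of 10 genes of transforming growth factor β (TGF-β) signaling and latency were examined in leukemic stem and progenitor cells of mice with a disease like chronic myeloid leukemia (CML). The genes were listed by name and not by their values: Tgfb1, Ltbp1, Ltbp3, Tgfbr1, Tgfbr2, Smad2, Smad3, Smad7, Ski and Skil. All 10 were found among the 46103 genes of the files, and 9 of them, all but Ltbp1, passed the filter for testing with 10072 genes in all. The mice had received marrow of G0M mice pretreated with 5FU and transduced with BCR-ABL1, the fusion kinase of CML, after lethal irradiation. G0M is a fluorescent marker of cells in the resting (G0) phase, carried in the Rosa26 locus and switched on by Vav1-Cre, which acts in blood cells. Every library was made from 100 sorted BCR-ABL1+ CD27+ KSL cells (c-Kit-positive, Sca1-positive and lineage-negative) of bone marrow and spleen, labelled as strain C57BL/6. DP cells carried G0M and came from vehicle-treated mice, and SP cells, also of vehicle-treated mice, lacked G0M. IMDP and IMSP cells were the corresponding G0M+ and G0M- cells of mice given imatinib, an inhibitor of BCR-ABL1, by gavage once a day. Each of the 4 groups had 3 libraries. The labels do not say whether these came from separate mice, so p-values measure the spread between libraries.

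TGF-β1 leaves the cell as an inactive complex, in which the growth factor stays bound to its own propeptide. Latent TGF-β binding proteins (LTBPs) attach to that propeptide and tether the complex to the matrix until integrins or proteases release the ligand. Free ligand binds the type II receptor TGFBR2, which activates the type I receptor TGFBR1, and this in turn phosphorylates SMAD2 and SMAD3. SMAD7 blocks the receptors, and the corepressors SKI and SKIL (SnoN) hold SMAD complexes silent at their target genes. In marrow the pathway is known for restraining the division of hematopoietic stem cells.

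Expression was deposited as RPKM, reads scaled by transcript length and library total, so levels of different genes can be compared per length. The totals behind the values were 11.4 to 20.6 M reads per library, and 1 read on 1 kb of transcript was worth 0.0486 to 0.088 RPKM. Markers of the sort were read first. The summed level of 10 stem cell markers was 171 to 184 RPKM in DP and 134 to 155 in SP libraries. It was 147 to 239 RPKM in IMDP and 150 to 178 in IMSP libraries. All but Cd34 and Cd48 averaged highest in IMDP libraries. Ly6a averaged 19.0 RPKM there against 4.55 in SP libraries, and Hlf 10.5 against 2.33. Whether the levels of the 10 TGF-β genes follow these markers was not tested. The summed level of 10 proliferation genes was 91.2 to 144 RPKM in DP and 51.4 to 95.3 RPKM in IMDP libraries, against 302 to 331 RPKM in SP and 291 to 388 RPKM in IMSP libraries. The library numbers in the descriptions run from 1 to 6 for imatinib and from 7 to 12 for vehicle, so treatment and the order of the libraries cannot be told apart. In bulk RNA, a change in the share of cells that express a gene and a change in RNA per cell cannot be told apart either.

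Of the 10 genes, Ltbp3 had the lowest adjusted p. It was higher in G0M+ than in G0M- cells and higher after imatinib. Its ligand Tgfb1 was lower in IMDP than in IMSP cells. That call was kept in 2 of 12 fits that left out 1 library. It was lost with each library scaled to the same median (limma adjusted p = 0.213). With limma on log2(RPKM + 0.1) and Benjamini-Hochberg adjustment over all tested genes, 0 of the 9 tested genes passed an adjusted p of 0.05 in DP against SP cells, where 2.26% of all genes passed. In IMDP against IMSP cells 2 of 9 passed, where 25.6% of all genes passed. These were Ltbp3, among the 2.37% of genes called higher, and Tgfb1, among the 23.3% called lower. In IMDP against DP cells 0 passed, with 0.367% of all genes passing, and in IMSP against SP cells 0 passed, with 0% of all genes passing. Where the count was 0, limma's unadjusted p was under 0.05 for 1 gene in DP against SP (1328 of all 10072 genes). It was so for 4 genes in IMDP against DP (2061 of all) and for 2 in IMSP against SP (845 of all). With limma-voom on recovered reads 1, 0 and 0 of the 9 were called, beside 263 of all genes in DP against SP. With the G0M difference averaged over treatments, 2 of 9 passed, both higher, where 26.3% of all genes passed and 5.32% were called higher. With the imatinib difference averaged over populations, 1 of 9 passed against 0.854% of all genes. For the difference between the 2 G0M effects, 0 of 9 passed, as did 0% of all genes. Here limma's unadjusted p was under 0.05 for 0 of the 9 and for 937 of all genes, and limma-voom called 0 of the 9.

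**Figure D1:**
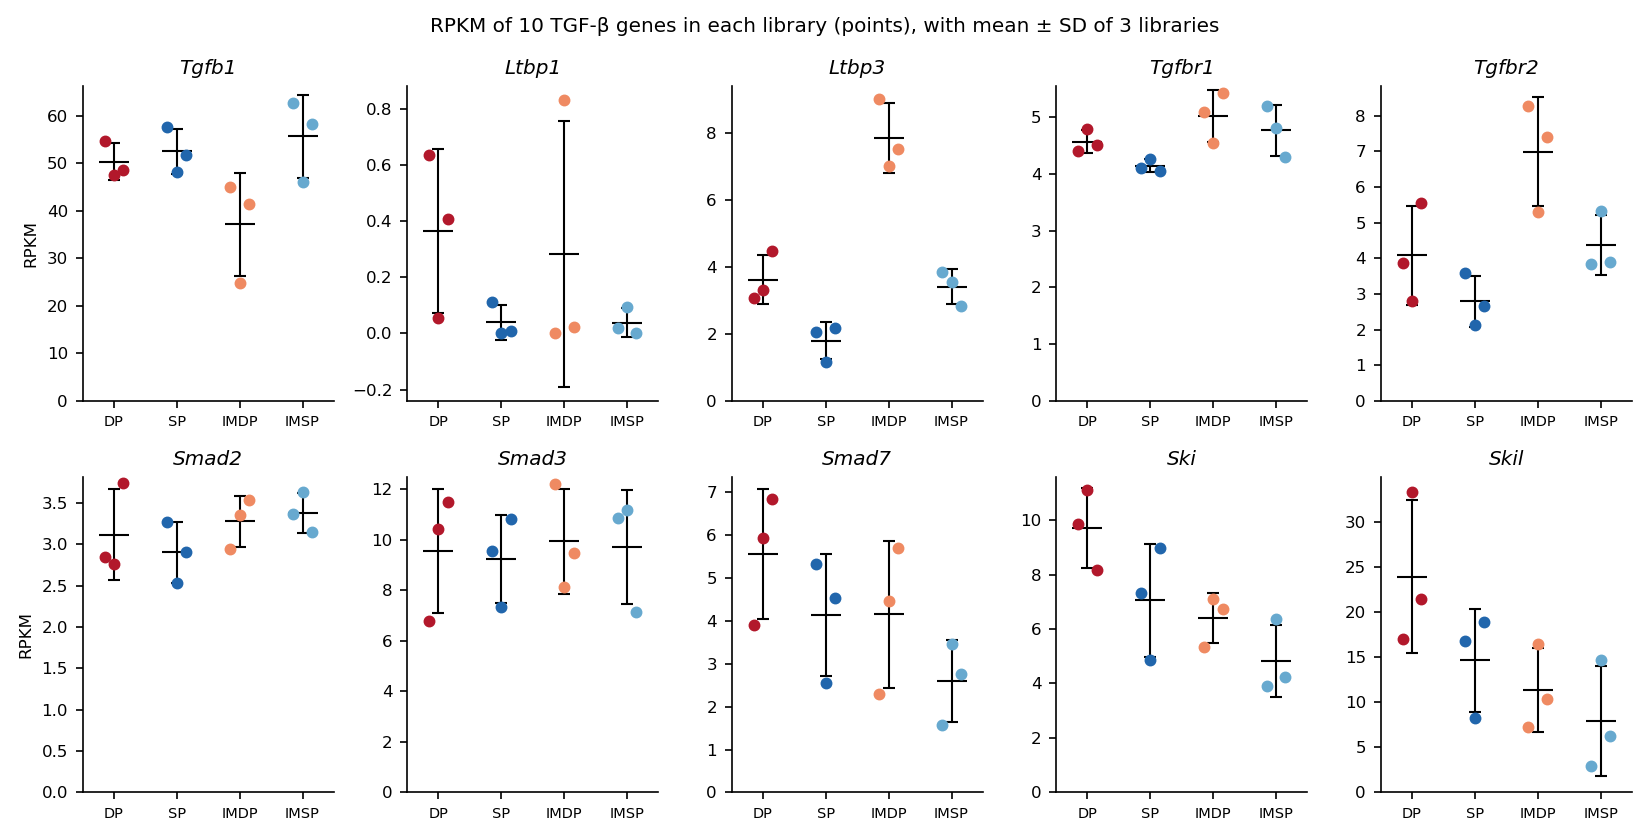
RPKM (vertical axes, each gene with its own scale) of the 10 genes in the 4 groups. Points are libraries, and bars are the mean ± SD of 3 libraries. For Ltbp3 the IMDP libraries, at 7.00 to 9.01 RPKM, lie above all others, and for Ski and Skil the group means fall in the order DP, SP, IMDP and IMSP.

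The 250 bases before the RefSeq start sites of Ltbp3, Tgfbr2 and Tgfb1 are shown because these genes passed the test in a G0M comparison, the former pair higher in G0M+ cells and Tgfb1 lower in IMDP than in IMSP cells. Sequences are from RefSeq (GRCm38.p6), 5′ to 3′ on the strand of the gene. In Ltbp3 (chr19:5740650-5740899, plus strand) and Tgfbr2 (chr9:116175364-116175613, minus strand) the capitals mark the SMAD box, CAGAC or GTCTG, the short element that SMAD3 and SMAD4 contact. In Tgfb1 (chr7:25686752-25687001, plus strand) they mark the GC box, GGGCGG or CCGCCC, which SP1 binds.
Ltbp3: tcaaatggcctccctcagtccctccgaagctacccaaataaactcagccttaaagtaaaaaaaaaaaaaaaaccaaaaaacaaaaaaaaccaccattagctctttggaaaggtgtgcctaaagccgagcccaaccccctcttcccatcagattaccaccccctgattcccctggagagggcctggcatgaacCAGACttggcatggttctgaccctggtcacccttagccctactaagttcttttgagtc
Tgfbr2: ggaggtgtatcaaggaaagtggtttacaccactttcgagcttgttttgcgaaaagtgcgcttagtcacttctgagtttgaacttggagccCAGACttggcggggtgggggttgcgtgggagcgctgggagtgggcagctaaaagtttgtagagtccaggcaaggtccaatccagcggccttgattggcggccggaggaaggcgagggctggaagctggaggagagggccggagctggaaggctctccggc
Tgfb1: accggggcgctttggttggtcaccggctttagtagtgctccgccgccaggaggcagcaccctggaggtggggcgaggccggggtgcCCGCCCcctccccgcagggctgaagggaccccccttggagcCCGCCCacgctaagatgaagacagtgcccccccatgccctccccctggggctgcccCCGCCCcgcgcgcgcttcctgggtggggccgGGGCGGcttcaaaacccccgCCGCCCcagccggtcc

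The Ltbp3 stretch held 1 SMAD box, starting 58 bases before the start site, and the Tgfbr2 stretch held 1, starting 160 bases before it. Such a match is common, since 42.2% of 32851 RefSeq promoters of the same length held at least 1. The Tgfb1 stretch held no SMAD box and 5 GC boxes, and its GC content was 75.2%, against 47.2% in Ltbp3 and 58.4% in Tgfbr2. At least 1 GC box was found in 32.7% of all promoters and 5 or more in 1.93%. Of the other genes searched, Ski also held 5 GC boxes, Smad3 2 and the first Tgfbr1 promoter 2. SMAD boxes were also found in both Ltbp1 promoters (1 and 2) and in the second Tgfbr1 promoter (1). Smad2 and Smad7, on chromosome 18, were left out of this search, and Skil had no entry. A match is a string of letters and was not examined for binding.

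Tgfb1 (chromosome 7, 25687002 to 25705077, GRCm38), the ligand, had the highest level of the 10 genes, at a mean of 48.9 RPKM over 12 libraries, above 97.1% of tested genes. It stood at 54.7, 47.6 and 48.6 RPKM in DP, 57.6, 48.1 and 51.7 in SP, 45.0, 24.8 and 41.5 in IMDP and 62.7, 46.0 and 58.2 in IMSP libraries. The IMDP libraries lay below every other library, and the library IMDP2 lay far below the other two. Group means fell from IMSP (55.6 ± 8.64 RPKM, SD, n = 3) through SP (52.5 ± 4.82) and DP (50.3 ± 3.89) to IMDP (37.1 ± 10.8), and the first 3 of these overlapped. Tgfb1 was lower in IMDP than in IMSP cells by limma's test (log2 difference -0.62 ± 0.21 SE, adjusted p = 0.0457). All tested genes had a median of -0.25 in that comparison, so the difference of Tgfb1 relative to the median gene was -0.36. The share of reads that fell on listed features was 25.9% to 31.1% in IMDP and 32.6% to 37.1% in IMSP libraries, lowest in IMDP2. With each library scaled to the same median, 15.8% of all genes passed, and Tgfb1, at -0.34, did not (adjusted p = 0.213). The call was lost in 10 of 12 fits that left out 1 library; without IMDP2 the difference was -0.35 (adjusted p = 0.15), and without IMSP1 it was -0.53 (adjusted p = 0.161). In DP against SP cells the log2 difference was -0.06 (95% interval -0.51 to 0.39, adjusted p = 0.916).

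Averaged over treatments, Tgfb1 had a log2 difference between G0M+ and G0M- cells of -0.34 (adjusted p = 0.101), and the blocks changed this call. With the replicate number of the titles as a block 27.9% of all genes passed and the adjusted p of Tgfb1 was 0.0354, and with neighbouring library numbers as a block it was 0.0104. IMDP libraries were below all DP libraries (log2 difference -0.48, limma adjusted p = 0.215).

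Ltbp3 (chromosome 19, 5740904 to 5758532), which encodes a latent TGF-β binding protein, stood at 3.09, 3.32 and 4.46 RPKM in DP and at 2.06, 1.16 and 2.18 in SP libraries. It stood at 9.01, 7.00 and 7.52 RPKM in IMDP and at 3.85, 3.55 and 2.84 in IMSP libraries. These values rested on 108 to 698 reads per library. Every IMDP library was above every library of the other groups, and every SP library was below them. Means fell from IMDP (7.84 ± 1.04 RPKM, SD, n = 3) through DP (3.62 ± 0.737) and IMSP (3.41 ± 0.518) to SP (1.80 ± 0.556), and only the neighbours DP and IMSP overlapped. Ltbp3 was 2.27-fold higher in IMDP than in IMSP cells (log2 difference 1.18 ± 0.24 SE, limma adjusted p = 0.00591), and it passed in all 22 alternative fits of this comparison. It was 2.00-fold higher in DP than in SP cells (log2 1.00, limma adjusted p = 0.0508), just outside the threshold. With neighbouring library numbers as a block, 9.73% of all genes passed in DP against SP and Ltbp3 was among them (adjusted p = 0.00773). Averaged over treatments the difference was 1.09 ± 0.17 SE (limma adjusted p = 0.00106).

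Ltbp3 was higher with imatinib than with vehicle in both populations, and the average over both passed the test. It was 2.15-fold higher in IMDP than in DP cells (log2 1.10, adjusted p = 0.0612) and 1.90-fold higher in IMSP than in SP cells (log2 0.92, adjusted p = 0.406), with no overlap in either comparison. That average was 1.01 ± 0.17 SE (limma adjusted p = 0.0214). Leaving out DP1, DP2, IMDP3 or IMSP1 took this average outside the threshold, with values of 0.96 (adjusted p = 0.0538), 0.99 (0.0758), 1.03 (0.0721) and 0.97 (0.0667). The interaction for Ltbp3 was 0.18 (95% interval -0.55 to 0.91, adjusted p = 0.879).

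The level of Ltbp3 was also set against that of Tgfb1 within each library, a ratio chosen after the values were seen and free of scaling between libraries. It was 0.0564 to 0.0919 in DP, 0.0242 to 0.0422 in SP, 0.181 to 0.282 in IMDP and 0.0488 to 0.0771 in IMSP libraries. The ratio was 3.54-fold higher in IMDP than in IMSP and 3.05-fold higher in IMDP than in DP cells, and 2.15-fold higher in DP than in SP and 1.85-fold higher in IMSP than in SP cells. None of these comparisons overlapped, and an exact two-sided permutation test gave p = 0.1 in each, the smallest that 3 against 3 libraries allow. Over all 12 libraries, shuffled without regard to the other factor, the exact permutation p was 0.0108 for G0M+ against G0M- and 0.0433 for imatinib against vehicle. Since the ratio was chosen from these same values, the p-values describe the separation and do not count as a test of it.

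**Figure D2:**
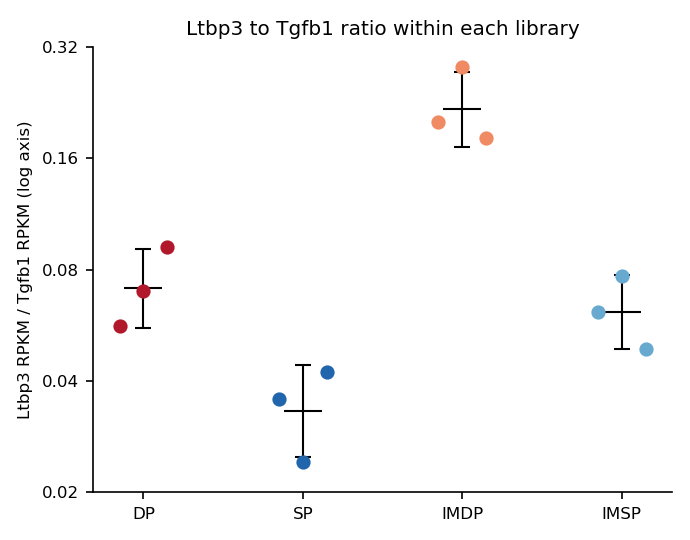
Ratio of Ltbp3 RPKM to Tgfb1 RPKM within each library (vertical log axis) in the 4 groups (horizontal axis). Points are libraries, and bars are the mean ± SD of the log2 ratio, n = 3. IMDP libraries lie at 0.181 to 0.282, above the rest, and SP libraries at 0.0242 to 0.0422, below the rest.

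Ltbp1 (chromosome 17, 75005568 to 75392512), a second latent TGF-β binding protein, reached 1 RPKM in 0 of 12 libraries and was not tested. Its reads per library were 82, 7 and 50 in DP, 19, 0 and 1 in SP, 0, 102 and 3 in IMDP and 3, 9 and 0 in IMSP libraries. These came to 0.635, 0.0542 and 0.41 RPKM in DP and to 0.831 RPKM in IMDP2, so 3 libraries held most of its signal and the groups overlapped. Of these 3, DP1 and IMDP2 also had the most megakaryocyte RNA, while DP3 lay near SP1 and IMSP2. The summed level of 11 megakaryocyte and platelet genes was 143 RPKM in DP1 and 118 RPKM in IMDP2, 46.7 in DP3, 44.0 in SP1 and 48.3 in IMSP2, and 8.22 to 29.9 in the other libraries. Of the 11, 9 reached 1 RPKM in DP and 8 in IMDP libraries, 6 in SP and 5 in IMSP libraries. Within that list, G6b was at 0 in all SP libraries, and Gp6 and G6b were at 0 in all IMSP libraries. Thbs1, a latency activator abundant in platelets and named here after its values were seen, was at 14.8 RPKM in DP1, 16.9 RPKM in IMDP2 and 3.74 RPKM in DP3, and at most 0.58 RPKM elsewhere. The part of megakaryocyte RNA in the Ltbp1 values was not tested.

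**Figure D3:**
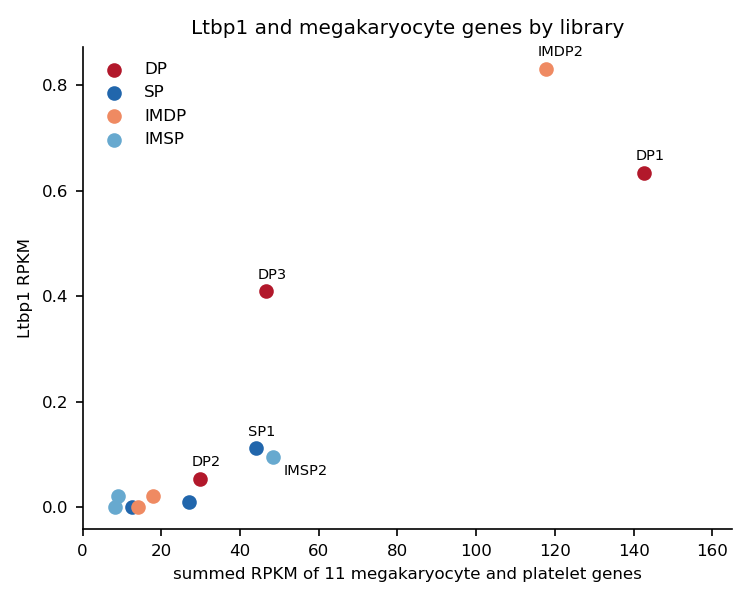
Ltbp1 RPKM (vertical axis) against the summed RPKM of 11 megakaryocyte and platelet genes (horizontal axis) in the 12 libraries, colored by group. IMDP2 and DP1 lie far to the upper right, DP3 follows at 0.41 RPKM of Ltbp1, and the other libraries stay at 0.112 RPKM or less.

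The receptor genes differed in their spread. Tgfbr2 (chromosome 9, 116084293 to 116175360), the ligand-binding type II receptor, stood at 3.88, 2.79 and 5.56 RPKM in DP, 3.57, 2.14 and 2.65 in SP, 8.26, 5.31 and 7.40 in IMDP and 3.85, 5.33 and 3.90 in IMSP libraries. All IMSP and all IMDP libraries were above all SP libraries, and the other pairs of groups overlapped. Averaged over treatments Tgfbr2 was higher in G0M+ cells (log2 difference 0.58 ± 0.19 SE, limma adjusted p = 0.0415). Leaving out 1 library lost this call in 8 of 12 fits, with adjusted p up to 0.1; without DP3 the difference was 0.46. In IMDP against IMSP cells alone it was 0.66 (adjusted p = 0.0894); with neighbouring library numbers as a block, 44.1% of all genes passed there and Tgfbr2 was among them (adjusted p = 0.036). With libraries scaled to the same median gene it also passed (0.93, adjusted p = 0.0309). Relative to the median gene, which was lower in IMDP cells, the difference was 0.91. Imatinib against vehicle gave 0.72 averaged over populations (adjusted p = 0.0885).

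Tgfbr1 (chromosome 4, 47353222 to 47414931), the type I receptor and signaling kinase, had the narrowest intervals. It stood at 4.40, 4.79 and 4.50 RPKM in DP, 4.11, 4.26 and 4.04 in SP, 5.10, 4.53 and 5.43 in IMDP and 5.20, 4.80 and 4.29 in IMSP libraries. DP libraries were above SP libraries and IMSP above SP, by small steps that did not pass (log2 0.14, adjusted p = 0.651, and 0.19, adjusted p = 0.716). Its 95% intervals in the 4 pairwise comparisons reached from -0.20 at the lowest to 0.47 at the highest. Per length, Tgfbr2 was 1.17 to 1.62 times as abundant as Tgfbr1 in IMDP libraries and 0.741 to 1.11 times in IMSP libraries, a ratio that did not overlap (exact permutation p = 0.1, the smallest possible). In DP libraries the ratio was 0.583 to 1.23 and in SP libraries 0.502 to 0.87, with overlap. This ratio too was chosen after the values were seen, so its p-value does not count as a test.

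The receptor-activated SMADs did not pass in any comparison. Smad3 (chromosome 9, 63646767 to 63757994) stood at 6.80, 10.4 and 11.5 RPKM in DP, 9.56, 7.36 and 10.8 in SP, 12.2, 8.12 and 9.49 in IMDP and 10.9, 11.2 and 7.14 in IMSP libraries. Smad2 (chromosome 18, 76241580 to 76310963), the other substrate of TGFBR1, ranged from 2.54 to 3.75 RPKM over all 12 libraries. All pairs of groups overlapped for both genes. The 95% interval of the averaged G0M difference was -0.35 to 0.42 for Smad3 and -0.23 to 0.28 for Smad2 on the log2 scale, and that of the averaged imatinib difference was -0.32 to 0.45 for Smad3 and -0.10 to 0.40 for Smad2. The intervals give the range of differences that these libraries allow.

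The 3 genes that restrain the pathway leaned in one pattern, with higher levels in G0M+ cells and lower levels after imatinib. None passed limma's test on all 12 libraries without scaling or a block. With neighbouring library numbers as a block all 3 passed in the G0M average, where 46.9% of all genes passed. Skil (chromosome 3, 31095058 to 31122577), a corepressor of SMAD complexes, stood at 17.1, 33.4 and 21.5 RPKM in DP, 16.8, 8.22 and 19.0 in SP, 7.31, 16.5 and 10.4 in IMDP and 2.92, 14.8 and 6.27 in IMSP libraries. All IMDP and all IMSP libraries were below all DP libraries, while the other pairs of groups overlapped. Its log2 difference between imatinib and vehicle averaged -1.08 ± 0.37 SE (limma adjusted p = 0.155), and it was -1.09 in G0M+ and -1.08 in G0M- cells.

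Ski (chromosome 4, 155154075 to 155222592), its paralog, stood at 9.86, 11.1 and 8.18 RPKM in DP, 7.33, 4.86 and 8.97 in SP, 5.35, 7.08 and 6.73 in IMDP and 3.92, 6.36 and 4.23 in IMSP libraries. Here too all IMDP libraries were below all DP libraries. Its averaged imatinib difference was -0.56 (adjusted p = 0.125). Smad7 (chromosome 18, 75367529 to 75395935), the inhibitory SMAD, stood at 3.89, 5.93 and 6.85 RPKM in DP, 5.32, 2.55 and 4.53 in SP, 2.30, 4.46 and 5.69 in IMDP and 1.56, 3.47 and 2.75 in IMSP libraries. The groups overlapped for Smad7 in all 4 pairwise comparisons, and its averaged imatinib difference was -0.56 (adjusted p = 0.305). Groups that did not overlap were found for 4 of the 9 tested genes in IMDP against DP cells, 1 higher (Ltbp3) and 3 lower (Tgfb1, Ski and Skil). Of all tested genes 23.6% did not overlap there.

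Between G0M+ and G0M- cells, averaged over treatments, the log2 differences were 0.73 for Skil (adjusted p = 0.153), 0.45 for Ski (0.0682) and 0.54 for Smad7 (0.155). In the SP group the library SP2 was the lowest for all 3 genes, and in IMSP cells IMSP1 was the lowest for all 3. In the fit with neighbouring library numbers as a block, 46.9% of all genes passed in this comparison and 13.4% were called higher. Skil (adjusted p = 0.0033), Ski (0.0148) and Smad7 (0.0035) were among those called higher, and 6 of the 9 genes passed in all. In IMDP against IMSP cells the same block called Skil (adjusted p = 0.0177) and Smad7 (0.0091) besides Ltbp3, Tgfb1 and Tgfbr2. The pairs of neighbouring library numbers joined IMDP1 with IMSP1 and so on in the imatinib arm, and DP3 with SP1, DP1 with SP2 and DP2 with SP3 in the vehicle arm.

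Markers of other cell types also differed between these libraries. The summed level of 10 neutrophil genes was 51.2 to 1171 RPKM in DP, 317 to 2193 in SP, 60.8 to 232 in IMDP and 419 to 1784 RPKM in IMSP libraries, with 5, 6, 4 and 6 of the 10 reaching 1 RPKM and Camp at 0 in all DP and all IMSP libraries. The 2193 RPKM belonged to SP2 and the 1784 RPKM to IMSP1, where Skil, Ski and Smad7 were lowest in their groups, and the 1171 RPKM to DP1, where Skil and Smad7 were lowest among the DP libraries. In the IMDP group the highest sum, 232 RPKM, belonged to IMDP3, which had the highest Smad7 and the middle values of Ski and Skil. The sums were mostly Mpo, Elane and Prtn3, granule genes that myeloid progenitors also express. Ngp, Camp and Ltf, genes of later neutrophils, averaged at most 0.39 RPKM in every group. S100a8, also on this list, averaged highest in SP libraries, at 20.2 RPKM. Its mean was 7.01 RPKM for DP, 1.87 for IMSP and 0.708 for IMDP libraries. S100a9 averaged 2.61 RPKM in SP libraries and at most 0.492 RPKM in any other group. For Cebpe the corresponding values were 1.60 and 0.948 RPKM. Mmp8 averaged at most 0.561 RPKM in every group. The lineage-negative sort had used antibodies to Gr-1 and CD11b, which mark mature myeloid cells. The part of neutrophil or progenitor RNA in the levels of Skil, Ski and Smad7 was not tested. The summed level of 10 mast cell and basophil genes was 76.3 to 329 RPKM in DP, 10.5 to 23.04 in SP, 14.9 to 194 in IMDP and 7.92 to 24.4 in IMSP libraries, with 9, 3, 9 and 4 of the 10 reaching 1 RPKM. Tpsab1 was at 0 in every group, and Cma1, Mcpt4 and Tpsb2 were at 0 in all SP and all IMSP libraries. For 10 macrophage and monocyte genes the summed level was 9.07 to 82.4 RPKM in DP, 16.1 to 95.1 in SP, 20.1 to 33.9 in IMDP and 18.2 to 170 in IMSP libraries, with 6, 4, 10 and 5 of the 10 reaching 1 RPKM. C1qa, C1qb and C1qc were at 0 in all SP and all IMSP libraries, and averaged 0.26 to 0.845 RPKM in DP and 0.828 to 1.36 RPKM in IMDP libraries. For 10 erythroid genes the summed level was 208 to 269 RPKM in DP, 55.2 to 148 in SP, 58.4 to 488 in IMDP and 10.7 to 72.9 in IMSP libraries, with 8, 7, 7 and 5 of the 10 reaching 1 RPKM and Car1 at 0 in all IMSP libraries. The part of mast cell, macrophage and erythroid RNA in the levels of Ltbp3 and Tgfbr2 was not tested.

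**Figure D4:**
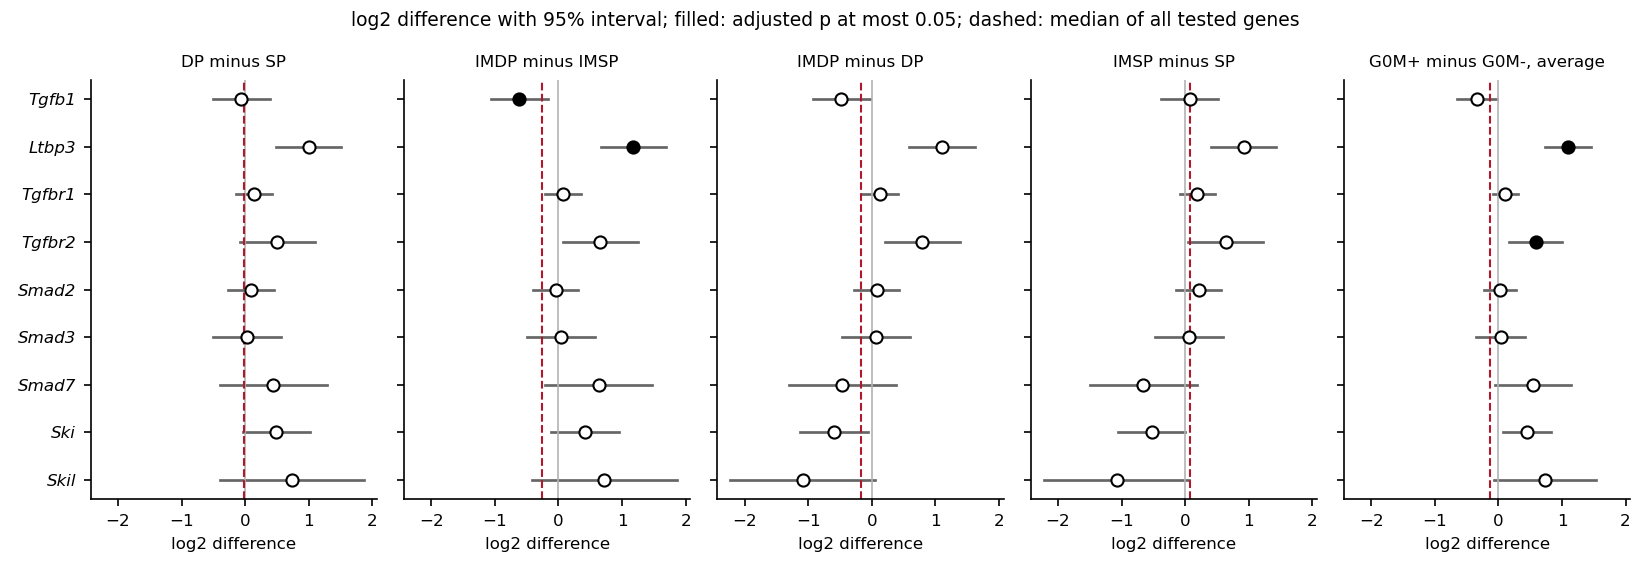
Log2 difference (horizontal axes) with its 95% interval for the 9 tested genes (vertical axis) in 4 pairwise comparisons and in the G0M difference averaged over treatments. Filled points passed an adjusted p of 0.05, and dashed lines mark the median of all tested genes. Ltbp3 lies between 0.92 and 1.18 in all 5 panels, while Ski, Skil and Smad7 lie right of 0 in the G0M comparisons and left of 0 in the imatinib comparisons.

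The rest of the pathway was followed in 108 other genes on 6 lists, of which 63 could be tested. In DP against SP cells 2 rose and 0 fell, beside 2.26% of all genes called. The count was 0 to 2 with 1 library left out (125 to 264 of all genes) and 9 with the library number block (9.73% of all genes). In IMDP against IMSP cells 2 rose and 5 fell, beside 2.37% of all genes called higher and 23.3% called lower. Here 1 to 12 passed with 1 library left out (902 to 2962 of all genes) and 4 with only the 2 groups in the fit (1553 of all genes). With the library number block 23 passed, beside 44.1% of all genes. In IMDP against DP and in IMSP against SP cells 0 passed with limma, and limma-voom called 0 in both. Unadjusted p was under 0.05 for 17 and 9 of the 63, beside 2061 and 845 of all 10072 tested genes. In the G0M difference averaged over treatments 7 rose and 3 fell, beside 26.3% of all genes called. This count of 10 was 3 to 13 with 1 library left out (1583 to 3061 of all genes) and 32 with the library number block (46.9% of all genes). The median of the 63 was 0.24 in DP against SP and 0.15 in IMDP against IMSP cells, beside medians of -0.02 and -0.25 over all tested genes.

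Among the ligands 2 of 15 could be tested, Bmp1 and Gdf15, and neither passed. The other isoforms of TGF-β stayed under the filter, with at most 0.13 RPKM for Tgfb2 and 0.596 RPKM for Tgfb3, and of the isoforms Tgfb1 alone passed it. Bmp1, a protease and the highest of this list, averaged 1.62 RPKM. On the latency and activation list 9 of 20 could be tested, and Furin passed. Furin, the convertase that cuts the TGF-β1 precursor, stood at 30.4, 15.1 and 15.6 RPKM in DP and at 5.69, 4.28 and 5.81 in SP libraries. It stood at 13.7, 10.4 and 5.20 RPKM in IMDP and at 3.85, 4.12 and 4.07 in IMSP libraries, and neither pair overlapped. It rose in DP against SP (log2 1.87 ± 0.33 SE, limma adjusted p = 0.00974) and again between IMDP and IMSP cells (1.16 ± 0.33 SE, adjusted p = 0.0262). Furin was highest in DP1 and IMDP1, which had the highest mast cell and basophil sums of their groups (329 and 194 RPKM). In SP2 and IMSP1, with the highest sums of their groups (23.04 and 24.4 RPKM), Furin was lowest. The part of mast cell RNA in the Furin levels was not tested. Itgb1, an integrin subunit and the highest of this list, averaged 19.9 RPKM and did not pass. Of the other proteins that bind the latent complex, Ltbp2, Ltbp4 and Lrrc32 stayed under the filter, and Nrros, a myeloid anchor of the complex named after its values were seen, averaged between 13.4 and 19.4 RPKM in the 4 groups.

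Of 13 receptors on the list 7 could be tested, and all 7 were higher in G0M+ cells in DP against SP and in IMDP against IMSP cells, without any passing in these pairs. Averaged over treatments 3 of the 7 rose, beside 5.32% of all genes called higher. These were Eng, a TGF-β coreceptor (log2 0.63, adjusted p = 0.0449), Acvr2b, an activin receptor (0.70, adjusted p = 0.0484), and Bmpr2, a BMP receptor (0.67, adjusted p = 0.037). Eng was the highest of the list, with a mean of 11.7 ± 2.96 RPKM (SD, n = 3) in DP against 7.88 ± 2.15 in SP libraries, and 14.8 ± 3.59 in IMDP against 9.42 ± 4.02 in IMSP libraries. The list's median was 0.63 in that comparison, beside -0.13 over all tested genes. The 3 other SMADs that could be tested did not pass, and Smad5, the highest, averaged 8.14 RPKM.

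Corepressors and other modulators gave 25 tested genes of 29, of which 4 fell in IMDP against IMSP cells and 0 rose, beside 23.3% of all genes called lower there. Strap, a WD-repeat protein that binds TGF-β receptors, fell most by adjusted p, from 33.6 ± 1.53 RPKM (SD, n = 3) in IMSP to 20.1 ± 4.84 in IMDP libraries (log2 -0.76, limma adjusted p = 0.00983). The others were Map3k7, the kinase TAK1 (log2 -0.49, adjusted p = 0.04), Hdac1, a histone deacetylase (-0.48, 0.0411), and Usp4, a deubiquitinase (-0.46, 0.0466). The list's median of -0.13 was above the median of all tested genes, -0.25. Fkbp1a, which binds the type I receptor and was the highest of the list, averaged 32.9 RPKM and did not pass.

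Of 26 target genes 17 could be tested. Id2, an inhibitor of differentiation, rose in DP against SP cells, from 1.34, 1.58 and 2.10 RPKM in SP to 9.94, 4.92 and 4.84 in DP libraries (log2 1.85 ± 0.41 SE, limma adjusted p = 0.033). Rgs1, a regulator of G protein signaling and the highest of the list, rose in IMDP against IMSP cells, from 18.4, 49.5 and 18.6 to 64.5, 66.9 and 70.4 RPKM (log2 1.38, adjusted p = 0.0376). Rgcc, a regulator of the cell cycle, fell in the same comparison, from 8.22, 4.04 and 3.81 to 0.932, 1.54 and 1.94 RPKM (log2 -1.76, adjusted p = 0.0148). After imatinib the target list stood lower, though 0 of the 17 passed: 15 were lower in IMDP than in DP and 14 lower in IMSP than in SP cells, with list medians of -1.27 and -0.78 beside -0.17 and 0.08 over all tested genes. Many genes of this list, such as Jun and Junb, also answer to other signals. The list was not split into genes that TGF-β raises and genes that it lowers, so its median is no measure of pathway activity.

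**Figure D5:**
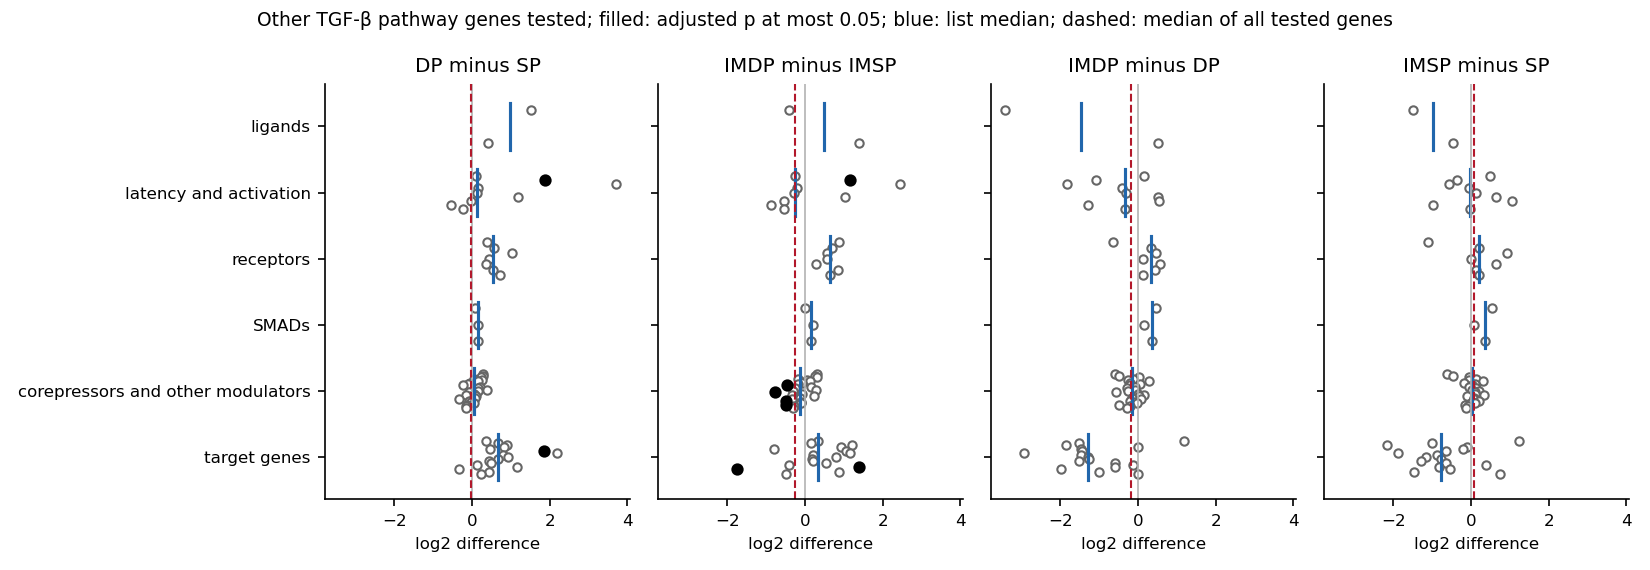
Log2 difference (horizontal axes) of the 63 tested genes of 6 other TGF-β pathway lists (vertical axis) in 4 comparisons. Filled points passed an adjusted p of 0.05, blue bars are list medians and dashed lines the median of all tested genes. The receptor list lies right of 0 in both G0M comparisons, and the target list has medians of -1.27 and -0.78 in the imatinib comparisons.

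Genes with the most similar profiles were sought for the 3 members that passed a G0M comparison, by the Euclidean distance between log2(RPKM + 0.1) profiles over 12 libraries, each centred on its own mean. For Ltbp3 these were Ptafr, the receptor of platelet-activating factor (distance 0.956), Izumo4 (1.13) and Slc25a27 (1.14), with a median distance of 3.14 to all tested genes. For Tgfbr2 they were Bcl11a, a transcription factor (0.738), Gcnt2 (0.747) and Mipol1 (0.781), with a median of 2.35. For Tgfb1 they were Psme2, a proteasome activator subunit (0.353), Polr1d (0.402) and Dlst (0.41), with a median of 1.32.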

How the data were processed

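The authors sequenced RNA of 100 sorted cells per library after priming with not-so-random primers and Nextera XT, which does not mark strand, and deposited 1 RPKM value for each of 48737 features in each of 12 libraries. Reads were mapped to GRCm38 (mm10). Mapping is credited to CLC Genomics Workbench in the methods, and to HISAT2 with featureCounts in the reporting summary. The submitters' processing notes name edgeR. Summing the 4568 features listed as numbered copies took the 48737 features to 46103 genes. None of the 10 genes has copies. RPKM values lay on steps of single reads for 17722 of 17735 features above 0 (99.9%, within 0.02 reads), which gave the totals of 11.4 to 20.6 M reads; 25.9% to 37.1% of these fell on listed features. Copies made by PCR were not marked.

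Genes were kept where 3 or more libraries reached 1 RPKM, and these 10072 genes were tested on log2(RPKM + 0.1) with limma 3.58.1 in R 4.3.3 (4 group means, moderated variance with a trend, Benjamini-Hochberg over all genes, threshold 0.05), after a check on simulated data. Fold changes on this scale understate changes of low genes. Single values and ratios were compared by exact two-sided permutation tests. Alternatives changed the pseudocount (1 or 0.01), the filter, the scaling, the block, the libraries, the groups in the fit, the summing of copies, and the test (limma-voom on recovered reads). The within-library ratios were added after the values were seen.

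Groups and replicate numbers came from the sample labels. Deviations from group means of libraries with the same replicate number correlated at 0.43 to 0.65 between IMDP and IMSP, and at -0.30 to -0.10 between DP and SP. Libraries with neighbouring numbers in the descriptions correlated at 0.43 to 0.65 in each of the 6 pairs, so that pairing was used as a block for the G0M comparisons. Genes named beyond the 10 members are other pathway genes past the threshold in a pairwise comparison, the highest gene of each list, the 3 nearest profiles, and those said to be chosen after their values were seen; Acvr2b and Bmpr2 also belong to the last. The members, the lists and the tests were chosen with earlier results of these data known. Gene positions are from GENCODE M21 and promoters from RefSeq, both on GRCm38. Figures were made with matplotlib 3.10.9.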

Additional observations from a re-analysis of the deposited data

How the results depend on the processing

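The direction of Ltbp3 was the same in all alternatives of the 4 pairwise comparisons and the 2 averages. Besides Ltbp3 in DP against SP cells (from 0 to 1 called gene with a pseudocount of 1, a mean of at least 1 RPKM, median scaling, the library number block or limma-voom), the count of called TGF-β genes changed as follows. In IMDP against IMSP cells it went from 2 to 1 with the filter at any value above 0 (2304 genes called in all) or with only the 2 groups in the fit (1553). It went to 5 with the library number block, where 44.1% of all genes passed. With 1 library left out the count lay between 1 and 2 (902 to 2962 genes in all). Median scaling kept the count at 2 (15.8% of all genes) but called Tgfbr2 (limma adjusted p = 0.0309) in place of Tgfb1. In IMDP against DP cells the count went from 0 to 1 with a pseudocount of 1 (37 genes in all). It lay between 0 and 1 with 1 library left out (0 to 189 genes in all), where leaving out SP2 called Ltbp3 (limma adjusted p = 0.0372). For the G0M average the count went from 2 to 1 with the filter at any value above 0, to 4 with median scaling and to 6 with the library number block (46.9% of all genes). Over the settings that kept all libraries, 2379 to 4721 genes were called in all. With 1 library left out the count lay between 1 and 4 (1583 to 3061 genes in all). Without IMSP2, Ski (limma adjusted p = 0.0281) and Skil (0.0305) were called. For the imatinib average the count lay between 0 and 1 with 1 library left out (12 to 143 genes in all). The replicate block added Tgfb1 in the G0M average and changed no other call of the 9 genes. The library number block has no value in the imatinib comparisons, because each pair lies within 1 treatment.

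Values near 0 changed sign in some settings. With median scaling these were Tgfb1 (-0.0068) and Smad3 (-0.021) in IMSP against SP and Smad2 (0.23) in IMDP against IMSP cells, and in the interaction Skil (from -0.013 to 0.22, and to 0.037 with limma-voom), Tgfbr1 (-0.063 to 0.17), Ski (-0.071 to 0.16) and Smad2 (-0.14 to 0.094). With 1 library left out, Tgfb1 ranged from -0.12 to 0.0098 in DP against SP and from -0.016 to 0.21 in IMSP against SP cells. Smad2 ranged from -0.043 to 0.18 in DP against SP, from -0.10 to 0.029 in IMDP against IMSP and from -0.044 to 0.067 in the G0M average. Smad3 ranged from -0.12 to 0.26 in DP against SP, -0.17 to 0.17 in IMDP against IMSP, -0.16 to 0.22 in IMDP against DP, -0.091 to 0.27 in IMSP against SP, -0.068 to 0.15 in the G0M average and -0.048 to 0.17 in the imatinib average. The cause of these changes was not tested.

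With 3 libraries of 100 cells a group, small differences could not be told from 0, and Ltbp1 rested on at most 102 reads.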
